A study of Mus musculus with 12 samples.

Results

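Genes grouped as doxorubicin efflux pumps and reductases, 9 in all, were followed in mouse embryonic fibroblasts (MEFs). They were chosen by name (listed in the table in capitals, as in ABCB1A, ABCC1 and NQO1). The group holds the 5 efflux pumps Abcb1a, Abcb1b, Abcc1, Abcc5 and Abcg2 and the 4 reductases Cbr1, Cbr3, Nqo1 and Por. These 9 of the 16425 genes in the deposited table were all measured and all passed the filter on low values. The cells were wild-type MEFs, fibroblasts cultured from mouse embryos, infected either with sg10, a guide RNA aimed at the p53 response element of Pvt1, or with sgtom, a non-targeting control guide. All libraries compared had been kept for 24 h in 0.5 µM doxorubicin, a DNA-damaging anthracycline, with 3 replicates per guide, and the guide was the labelled difference between the groups. The age of the embryos, the nuclease, the share of cells edited and whether cells were pooled or cloned are not given in the sources used here. The 6 untreated samples of the series were not analysed here, so no value below compares treated with untreated cells.

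ABC transporters are membrane proteins that use ATP to pump molecules across a membrane, and several of them carry anthracyclines out of the cell and so lower the dose that reaches DNA. In mice the role of human P-glycoprotein is shared by a pair of genes, Abcb1a and Abcb1b. Carbonyl reductases turn doxorubicin into its alcohol doxorubicinol. The flavoenzymes Nqo1 and Por pass electrons to quinones, a group that doxorubicin also holds. Nqo1 does so in a double step that yields a hydroquinone, and Por in single steps that yield a semiquinone able to react with oxygen. How far Nqo1 acts on doxorubicin itself was not measured here.

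RNA was read as polyadenylated, strand-specific libraries, with between 50091418 and 66132317 reads in genes per library. Levels are in CPM, the reads of a gene relative to the scaled size of its library. Pvt1, the targeted gene, averaged 0.483 times its control mean with sg10, and neighbouring Myc 1.60 times. All 11 fibroblast markers were in the table, with a summed level of between 37194 and 39039 CPM per library, most of it from Fn1 (fibronectin), Col1a1, Vim and Col1a2. Lum, at a mean of 11.3 CPM, Dcn, at 21.3 CPM, and Pdgfra, at 33.4 CPM, were lower than some markers of other cell types, such as Kdr of endothelium (61.8 CPM), Krt19 of epithelium (80.7 CPM) and Nes of neural cells (152 CPM). Of the other lists 7 of 10 endothelial, 8 of 9 epithelial, 4 of 7 muscle and 6 of 8 neural and glial markers were in the table, and those not listed included Cdh5, Krt8, Myod1 and Sox10. The filter on low values was passed by fewer: 5 endothelial, 3 epithelial, 2 muscle and 5 neural and glial markers. The labels call the replicates biological, without saying whether they came from separate embryos or cultures. The p-values set a difference against the spread between these libraries, or within their pairs where pairing was fitted. How far they extend to other cultures is not known.

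The pumps Abcb1a (ENSMUSG00000040584.8, chromosome 5 from 8660077 to 8748575) and Abcb1b (ENSMUSG00000028970.9, chromosome 5 from 8798147 to 8866315) are neighbours on the plus strand, 49.6 kb apart in mm10. Their coding sequences were 88.2% identical over 3819 aligned positions, with the longest identical run at 338 bases. The end of that run is shown, with the bases just after it, because a read that lies wholly within the run fits both genes. Capitals mark the positions at which the pair differs, and both stretches lie in 1 exon, at chr5:8702795-8702959 and chr5:8825115-8825279 on the plus strand.
Abcb1a, shared stretch: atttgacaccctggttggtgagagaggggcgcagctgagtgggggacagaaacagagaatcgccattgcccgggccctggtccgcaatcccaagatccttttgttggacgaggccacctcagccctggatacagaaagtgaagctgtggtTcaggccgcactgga
Abcb1b, shared stretch: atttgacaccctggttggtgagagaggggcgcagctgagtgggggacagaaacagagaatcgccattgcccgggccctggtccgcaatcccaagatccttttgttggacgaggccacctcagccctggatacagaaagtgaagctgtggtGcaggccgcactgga
The 90-base window with the most differences, 29, is shown for contrast, at chr5:8714894-8714983 and chr5:8827333-8827422.
Abcb1a, most divergent window: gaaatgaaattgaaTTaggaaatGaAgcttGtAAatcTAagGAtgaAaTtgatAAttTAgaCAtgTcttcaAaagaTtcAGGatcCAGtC
Abcb1b, most divergent window: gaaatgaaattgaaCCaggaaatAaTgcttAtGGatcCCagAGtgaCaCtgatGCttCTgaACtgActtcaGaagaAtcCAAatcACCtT
Of all 50-base stretches, 15.5% of those in the Abcb1a transcript and 18.04% of those in the Abcb1b transcript occurred in the other. How reads that fit both genes were counted, and the read length, are not known from these sources, so the level of each gene of the pair is uncertain. These shares do not bound the error, and reads of Abcb1b, the more abundant gene, would weigh more on Abcb1a than the reverse.

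Cbr1 (ENSMUSG00000051483.9, chromosome 16 from 93605853 to 93610505) and Cbr3 (ENSMUSG00000022947.8, chromosome 16 from 93683215 to 93690990) form a second pair of neighbours, 72.7 kb apart on the plus strand. Their coding sequences were 77.9% identical, and the longest identical run was 50 bases, so that 1 50-base stretch was shared. That run is shown with 15 bases on each side, from coding positions 131 to 210 of both, at chr16:93608096-93608175 and chr16:93683455-93683534, with the 8 differences in capitals.
Cbr1: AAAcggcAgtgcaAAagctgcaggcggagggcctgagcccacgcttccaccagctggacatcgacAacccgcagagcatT
Cbr3: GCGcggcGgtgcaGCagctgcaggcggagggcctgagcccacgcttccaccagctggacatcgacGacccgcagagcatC

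Per kb of annotated exons, the mean level over the 6 libraries was highest for Por, at 50.6 ± 5.12 CPM per kb, and for Nqo1, at 50.1 ± 25.3 CPM per kb (SD, n = 6), and the ranges of these 2 genes overlapped. Cbr3 followed at 19.5 ± 2.70 CPM per kb and Abcc5 at 12.5 ± 0.937 CPM per kb, each apart from its neighbours in the order. Abcg2 (10.01 ± 0.883), Cbr1 (9.20 ± 1.06) and Abcc1 (8.67 ± 1.04 CPM per kb) could not be ordered, since the range of each overlapped the next. Abcb1b, at 6.31 ± 0.161 CPM per kb, lay above Abcb1a, at 2.81 ± 0.615 CPM per kb, in every library. The reductases Por and Nqo1 thus stood above all 5 pumps on this scale, and Abcb1a was the lowest of the 9. With the length of the transcript that has the longest coding sequence, chosen after seeing the data, Por and Nqo1 stayed at the top and Abcb1a at the bottom. Abcc5 (22.95 CPM per kb) then came before Cbr3 (20.9), Abcc1 (19.3) before Cbr1 (19.0), and Abcg2 after Cbr1. On that scale Cbr3 and Abcc5 were no longer apart. The range of Cbr3 (16.4 to 24.0) overlapped those of Abcc5 (21.3 to 25.3) and Abcc1 (16.5 to 22.2 CPM per kb). Each value rested on between 689 and 16317 reads.

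**Figure D1:**
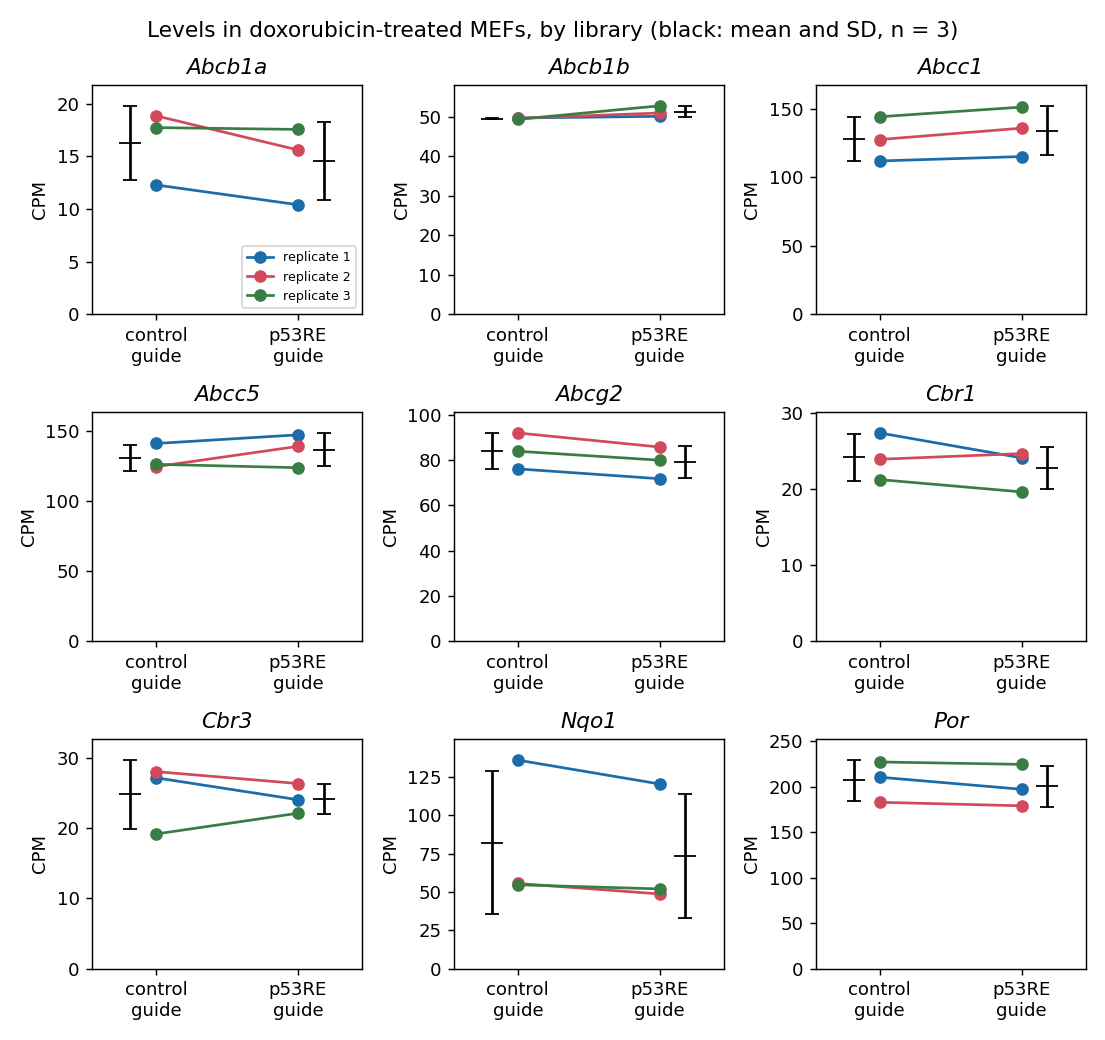
CPM (vertical axes, each from 0) of the 9 genes in the 6 doxorubicin-treated libraries, by guide; lines join libraries with the same replicate number, and black marks give the mean and SD (n = 3 per guide). The lines of Nqo1 split into replicate 1, at 136 and 120 CPM, and the others, at 48.7 to 55.5 CPM, while all Abcb1b points lie between 49.4 and 52.8 CPM.

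The first comparison asked whether aiming a guide at the response element of Pvt1 came with another level of the pumps or reductases under doxorubicin. None of the 9 genes was called, and the sg10 mean lay between 0.892 times (Abcb1a) and 1.05 times (Abcc1) the control mean. In limma over all 14440 tested genes the adjusted p was 1.0 for each member, 0 of 9 members passed, as did 0% of all genes, and no member had an unadjusted p under 0.05 (0.346% of all genes did). The authors' deposited table gives each member a false discovery rate of 1.0. Of the 9 log2 fold changes (sg10 over sgtom), 6 lay below 0 and 3 above, with a median of −0.05. Among all genes 50.3% lay below 0, with a median of 0.00. This limma fit did not use the replicate numbers, so differences between replicates counted in its error and guide differences could be missed. It called neither Pvt1, at 0.483 times its control mean with sg10, nor Myc, at 1.60 times. A fit that pairs the replicates is given below.

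Among the pumps, Abcb1a stood at 12.3, 18.9 and 17.7 CPM with the control guide and at 10.4, 15.6 and 17.6 CPM with sg10, in replicate order. The guides overlapped, although each sg10 library lay below the control library of the same number. Its log2 fold change was −0.17 (SE 0.237). Abcb1b, its neighbour, stood at 49.7, 49.6 and 49.4 CPM with the control guide and 50.1, 51.0 and 52.8 CPM with sg10. All sg10 libraries of Abcb1b lay above all control libraries, by a mean of 1.03-fold (51.3 ± 1.36 against 49.6 ± 0.181 CPM, SD, n = 3 each). The gap between the lowest sg10 library and the highest control library, 50.1 against 49.7 CPM, was smaller than the counting error of Abcb1b, 1.87% at its lowest read count. This was the 1 member without overlap between guides, as were 3.61% of all genes (2.15% with sg10 higher and 1.47% with sg10 lower). The two-sided exact permutation p for Abcb1b was 0.10, the smallest that 3 libraries against 3 allow, and 0.788 after Benjamini-Hochberg adjustment over the 9 members.

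Abcc1 (ENSMUSG00000023088.17, chromosome 16 from 14361558 to 14475737), a pump for glutathione conjugates and for anthracyclines, stood at 112, 127 and 144 CPM with the control guide and 115, 136 and 151 CPM with sg10. Both guides showed the same order of replicates, and the groups overlapped. Abcc5 (ENSMUSG00000022822.16, chromosome 16 from 20331303 to 20426394), a pump of cyclic nucleotides, stood at 141, 124 and 126 CPM and at 147, 139 and 124 CPM. It was higher with sg10 in 2 of 3 pairs of equal replicate number. Abcg2 (ENSMUSG00000029802.13, chromosome 6 from 58584523 to 58695676), the breast cancer resistance protein, stood at 76.1, 92.0 and 83.9 CPM with the control guide and 71.8, 85.8 and 80.0 CPM with sg10. Each sg10 library of Abcg2 lay below its partner, at 0.943, 0.932 and 0.953 times it, while the groups overlapped. Log2 fold changes were 0.07 for Abcc1 (SE 0.131), 0.06 for Abcc5 (SE 0.0869) and −0.08 for Abcg2 (SE 0.0965).

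Among the reductases, Cbr1 stood at 27.4, 23.9 and 21.2 CPM with the control guide and 24.1, 24.7 and 19.6 CPM with sg10. Cbr3 stood at 27.2, 28.1 and 19.2 CPM and at 24.1, 26.4 and 22.1 CPM. Both carbonyl reductases overlapped between guides and had pairs in both directions. Por (ENSMUSG00000005514.14, chromosome 5 from 135670033 to 135735326), the electron donor of microsomal cytochromes P450, stood at 210, 183 and 227 CPM with the control guide and 197, 179 and 224 CPM with sg10. Its sg10 libraries lay at 0.937, 0.979 and 0.988 times their partners, a smaller distance than that between replicates. Nqo1 (ENSMUSG00000003849.8, chromosome 8 from 107388225 to 107403206, minus strand), the quinone oxidoreductase, stood at 136, 55.5 and 54.7 CPM and at 120, 48.7 and 52.0 CPM. Both replicate 1 libraries of Nqo1 stood far above the other 4, and each sg10 library lay below its partner, at 0.885, 0.877 and 0.951 times it. Log2 fold changes were −0.08 for Cbr1 (SE 0.127), −0.02 for Cbr3 (SE 0.157), −0.05 for Por (SE 0.115) and −0.15 for Nqo1 (SE 0.478).

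Libraries with equal replicate numbers deviated together, so the difference was also fitted with a replicate block. In that paired fit limma called 5 of 14440 genes (0.0346%) where it had called 0, and again 0 of 9 members. Before adjustment 3 members lay under 0.05 in it, beside 6.68% of all genes, and limma gave them an adjusted p of 0.570 (Nqo1), 0.699 (Abcb1a) and 0.705 (Abcg2). The 95% interval of the fold difference with the block ran from 0.855 to 0.957 for Nqo1, from 0.805 to 0.982 for Abcb1a and from 0.896 to 0.992 for Abcg2. Without the block the interval of Nqo1 ran from 0.407 to 2.01, and that of Abcb1b, the narrowest of the 9, from 0.952 to 1.12. In all, 2 members were higher in 3 of 3 pairs (Abcb1b and Abcc1), as were 14.4% of all genes, and 4 were lower in 3 of 3 (Abcb1a, Abcg2, Nqo1 and Por), as were 14.4% of all genes. Two-sided exact sign flips within pairs cannot give less than p = 0.25 with 3 pairs, and gave that value for these 6 members.

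**Figure D2:**
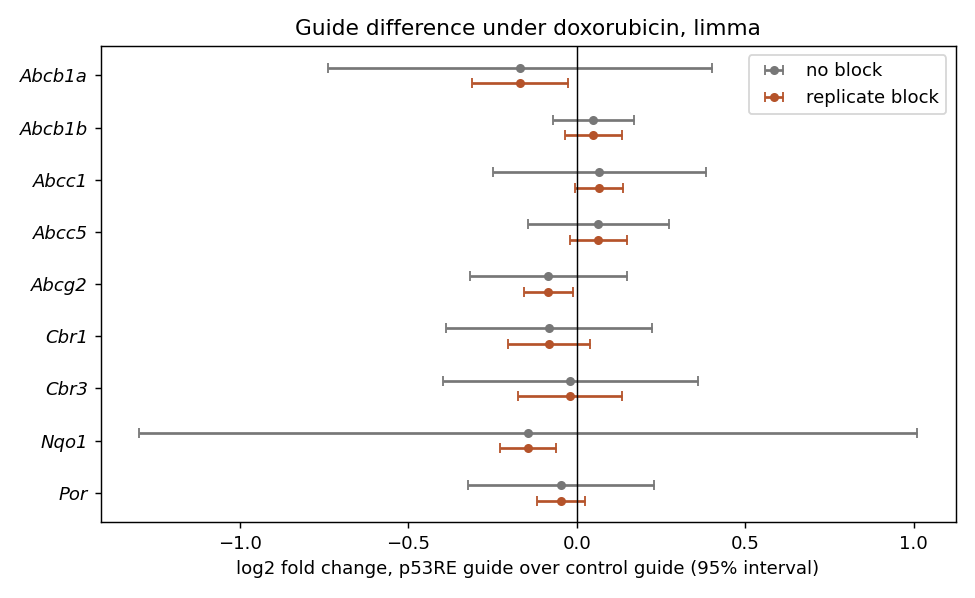
Log2 fold change of each gene, sg10 (p53RE guide) over control guide, with 95% intervals from limma without a block (grey) and with a replicate block (brown), 3 libraries per guide. The grey intervals all include 0; with the block those of Abcb1a, Abcg2 and Nqo1 lie below 0, and no member passed the threshold over all genes.

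Ratios within a library do not depend on its scaling. Abcb1b reads outnumbered Abcb1a reads by 4.04, 2.63 and 2.78-fold with the control guide and by 4.81, 3.26 and 3.005-fold with sg10, higher with sg10 in 3 of 3 pairs. The groups overlapped, and the two-sided exact permutation p was 0.50 (0.70 adjusted over the 3 ratios examined). Cbr3 over Cbr1 was 0.993, 1.17 and 0.903 with the control guide and 0.998, 1.07 and 1.13 with sg10 (exact permutation p = 0.60, 0.70 adjusted). Nqo1 over Por, the quinone reductase of double steps over that of single steps, was 0.647, 0.304 and 0.241 and then 0.611, 0.272 and 0.232 (exact permutation p = 0.70, 0.70 adjusted), lower with sg10 in 3 of 3 pairs. Within pairs, two-sided exact sign flips gave p = 0.25, the smallest that 3 pairs allow, for Abcb1b over Abcb1a and for Nqo1 over Por, and p = 0.75 for Cbr3 over Cbr1. The Nqo1 to Por ratio was higher in replicate 1 than in the others with either guide, and the guides overlapped in all 3 ratios.

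The second comparison asked how far the members differed between replicate numbers. Nqo1 was the member that differed most: it averaged 128 CPM in replicate 1 and 52.1 and 53.3 CPM in replicates 2 and 3, a log2 difference of 1.27, in the same direction with either guide. The limma F test of replicate number, with the guide in the model, called 8 of 9 members, all but Abcb1b (adjusted p = 0.826), and 48.6% of all genes. Adjusted p values were 2.43e-09 for Nqo1, 4.19e-05 for Abcc1, 9.00e-05 for Abcb1a, 1.72e-04 for Por and 8.74e-04 for Abcg2 in limma. They were 0.00478 for Cbr1, 0.00799 for Cbr3 and 0.0111 for Abcc5. Limma without its variance trend kept 5 of these calls and lost Abcc5 (adjusted p = 0.137), Cbr1 (0.0602) and Cbr3 (0.0900). Over all 14440 tested genes its calls fell as well, from 7022 to 4328.

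Replicate number held 98.4% of the sum of squares of Nqo1, 95.3% of Por, 95.2% of Abcc1 and 88.7% of Abcb1a, beside a median of 80.5% over all genes. The guide held 1.44% for Nqo1 and a median of 3.94% over all genes. Abcb1b stood apart, with 16.4% for replicate number and 55.0% for the guide, of a small total: its highest library was 1.07 times its lowest. Only 4.996% of the 7065 genes with a mean of at least 20 CPM had a smaller range. Nqo1, at 2.79-fold, had a larger range than 98.98% of them.

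**Figure D3:**
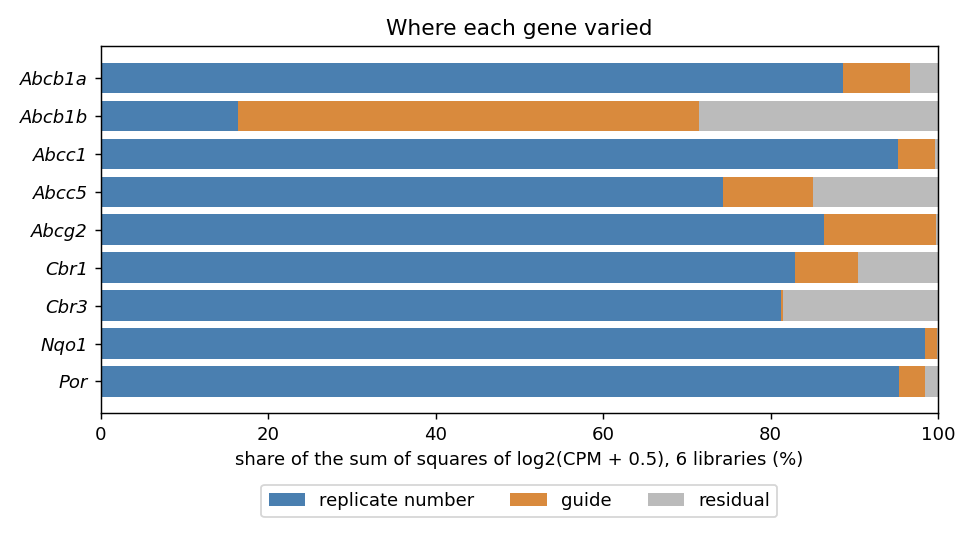
Share of the sum of squares of log2(CPM + 0.5) over 6 libraries (horizontal axis, %) that went with replicate number (blue), guide (orange) and neither (grey), for each gene. Replicate number holds most of it for 8 genes, 98.4% for Nqo1, and 16.4% for Abcb1b.

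For 8 of 9 members both libraries of 1 replicate number lay beyond all others, as they did for 77.5% of all genes. The members did not order the replicates alike. Both replicate 1 libraries lay above all others for Nqo1 and Abcc5 and below all others for Abcb1a, Abcc1 and Abcg2, so that 5 of 9 members had replicate 1 at an end, as did 51% of all genes. The log2 difference of replicate 1 from the mean of replicates 2 and 3 was −0.60 for Abcb1a, −0.30 for Abcc1 and −0.21 for Abcg2. It was 0.17 for Abcc5, 0.20 for Cbr1 and 0.11 for Cbr3. Por was instead lowest in replicate 2, with a mean of 181 CPM against 204 and 226 CPM in replicates 1 and 3. Cbr1 and Cbr3 were lowest in replicate 3, at 20.4 and 20.7 CPM. With both replicate 1 libraries left out, an alternative chosen after seeing the data, replicate 3 differed from replicate 2 for 4 of 9 members in limma, beside 22.4% of all genes. These were Por (adjusted p = 4.06e-08), Cbr3 (4.00e-05), Abcc1 (0.00390) and Cbr1 (0.00651), while Nqo1 was not called (0.684). Over the 6 libraries the levels of Abcb1a and Abcg2 went together (Pearson r = 0.87 of log2 values), as did those of Cbr1 and Cbr3 (r = 0.75), while Abcb1a and Abcc5 went opposite ways (r = −0.93). These 36 pairwise values share the same 6 libraries and their replicate differences and are given as a description.

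Markers of macrophages, a cell type that MEF cultures can hold, also differed in replicate 1. All 14 of the list were in the table, none at 0 in any library, and 13 were tested. Their summed level was 233 and 366 CPM in the replicate 1 libraries (control, then sg10) and between 108 and 136 CPM in the other 4. Both replicate 1 libraries lay above all others for 12 of the 13, beside 25.7% of all genes, and Lyz2, a lysozyme gene and the most abundant of the list, averaged 112 CPM in replicate 1 and 33.1 and 43.8 CPM in replicates 2 and 3. Nqo1 stood in replicate 1 at 136 CPM with the control guide and 120 CPM with sg10, 1 library each, and was lower with sg10 in all 3 pairs. The part of macrophages in the level of Nqo1 was not tested. A change in the number of a kind of cell and in the RNA per cell cannot be told apart in bulk RNA.

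Because Nqo1 is a textbook target of Nrf2, the transcription factor that answers oxidants and electrophiles, 28 other regulators and targets of Nrf2 were examined, and all 28 were tested. Replicate 1 was above the mean of the others for 22 of the 28 (50.7% of all genes), with a median log2 difference of 0.28 (0.00 over all genes), and both replicate 1 libraries lay above all others for 20 of the 28 (25.7% of all genes). The F test of replicate number called 22 of the 28 (48.6% of all genes). The ferritin chains Ftl1 and Fth1, which store iron and have close copies in the genome that make their counts uncertain, averaged 3058 and 1449 CPM in replicate 1. They averaged 2742 and 1117 CPM in replicate 2 and 2301 and 885 CPM in replicate 3. Sqstm1, an autophagy receptor, averaged 957, 859 and 752 CPM in replicates 1, 2 and 3. The cystine carrier Slc7a11 (log2 difference 1.63) and the glutathione transferase Gstm1 (1.16) were near or above Nqo1 in this respect. They were the list's highest and were picked after seeing their values. Nfe2l2, which encodes Nrf2, was at −0.09. The list was chosen with earlier results of these data known, and macrophage markers were higher in the same libraries. Whether Nrf2 had a part in the level of Nqo1 or of these genes was not tested.

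**Figure D4:**
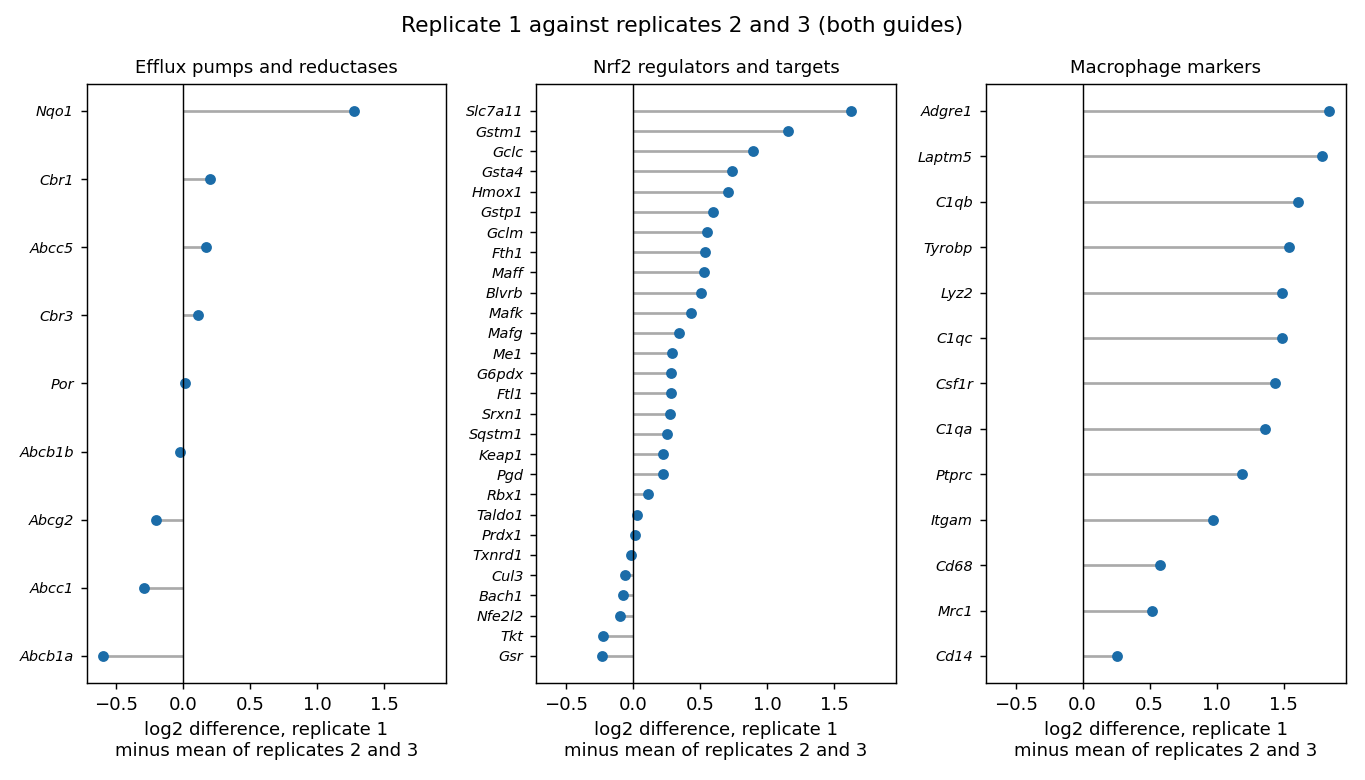
Log2 difference of replicate 1 from the mean of replicates 2 and 3, both guides together (horizontal axis), for the 9 members, 28 Nrf2 regulators and targets and 13 macrophage markers. Nqo1 lies at 1.27 and the median of the Nrf2 list at 0.28, and all 13 macrophage markers lie above 0, with a median of 1.43.

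Between guides, 24 of these 28 Nrf2 genes lay lower with sg10 (50.3% of all genes did) and 4 higher. The median log2 fold change was −0.04 (0.00 over all genes), and limma called 0 with or without the block. Taken without its sign, the median log2 fold change over all genes was 0.047. The 28 genes share the same 6 libraries, and 22 of them differed between replicates, so they are not independent of each other. Their summed level was 10611.5, 8919 and 7869 CPM with the control guide and 9722, 8605 and 7963 CPM with sg10, in replicate order. It was thus not lower with sg10 in replicate 3. Quantile normalization left 21 of the 28 lower. The remaining lists of the pathway gave 0 calls between guides as well, in either fit. Of other ABC transporters, 29 of 40 were tested, with 12 higher, 17 lower and a median of −0.02. The most abundant by CPM were Abca1, a cholesterol exporter (146 ± 15.5 CPM with the control guide, 145 ± 4.96 with sg10), Tap1, a peptide transporter (90.2 ± 3.59 and 90.8 ± 4.25), and Abca7 (78.0 ± 6.32 and 76.7 ± 4.79; SD, n = 3 each).

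Other carbonyl and aldo-keto reductases were tested for 20 of 29 genes, 7 higher and 13 lower, with a median of −0.01. Akr1a1, an aldehyde reductase, averaged 619 ± 37.6 and 614 ± 41.6 CPM, Akr1b3, which makes sorbitol from glucose, 192 ± 26.2 and 189 ± 22.6 CPM, and Dcxr, a xylulose reductase, 152 ± 15.7 and 159 ± 11.2 CPM (control, then sg10; SD, n = 3 each). Other quinone and flavin reductases, 14 of 19 tested, had 6 higher and 8 lower, with a median of −0.02. They were led by Txnrd1, the thioredoxin reductase (831 ± 12.3 and 803 ± 20.3 CPM), Cyb5r3, a cytochrome b5 reductase (593 ± 137 and 572 ± 128 CPM), and Cyb5r1 (61.3 ± 5.37 and 62.3 ± 4.04 CPM). None of these genes passed the limma test between guides, although the means of Txnrd1 lay further apart than either SD.

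Genes listed as electron acceptors of Por, or as partners of such acceptors, were tested for 19 of 24, 6 higher and 13 lower, with a median of −0.04. Hmox1, which breaks down heme, averaged 596 ± 194 CPM with the control guide and 564 ± 168 CPM with sg10, Cyp1b1, a cytochrome P450, 261 ± 27.2 and 253 ± 25.6 CPM, and Pgrmc1, a heme-binding membrane protein, 248.8 ± 19.1 and 235 ± 14.04 CPM. Of transcription factors that sense drugs or control pumps, 19 of 22 were tested, 10 higher and 9 lower, with a median of 0.03. They were led by Ybx1 (618 ± 11.2 and 635 ± 33.2 CPM), Hif1a, the hypoxia factor (202 ± 26.5 and 196 ± 31.1 CPM), and Trp53, which encodes p53 (160 ± 16.6 and 171 ± 4.37 CPM). Nr1i2 and Nr1i3, the drug-sensing nuclear receptors of liver, were not listed. Uptake carriers and other genes of anthracycline handling, 7 of 11 tested, had 3 higher and 4 lower, with a median of −0.02. Mvp, the major vault protein (96.2 ± 5.87 and 96.2 ± 3.98 CPM), and the copper carrier Slc31a1 (57.8 ± 5.90 and 56.4 ± 5.86 CPM) were among the most abundant.

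Markers of other cell types were summed over the genes of each list in the table. Endothelial markers, led by Kdr, lay between 87.2 and 124 CPM per library, epithelial markers, led by Krt19, between 57.2 and 101 CPM, muscle markers, led by Des, between 29.8 and 49.2 CPM, and neural and glial markers, led by Nes, between 230 and 277 CPM. Macrophage markers lay higher with sg10 for 12 of 13 tested (49.7% of all genes did), with a median log2 fold change of 0.16. The difference in their summed level lay mainly in replicate 1, at 233 CPM with the control guide and 366 CPM with sg10. It was 114 and 108 CPM in replicate 2 and 134 and 136 CPM in replicate 3. Without the block limma called 0 genes of these lists, the macrophage list or the fibroblast list between guides. With the replicate block it called 1 fibroblast marker, the calcium-binding protein gene S100a4, which fell with sg10 (log2 fold change −0.31, limma adjusted p = 0.0107).

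Over the 10390 other genes with a mean of at least 5 CPM, the levels most like Nqo1 across the 6 libraries were those of Cyb5r3 (Pearson r = 0.9997 of log2 values) and Sfrp2 (r = 0.9995), a secreted Wnt antagonist. Cyb5r3 stood at 752 and 720 CPM in replicate 1 and at 493 to 515 CPM in the others, and so parted the libraries as Nqo1 did. Most like Abcb1b were Mkl2 (r = 0.99) and Nob1 (r = 0.97). Only 16 genes were above r = 0.9 for Abcb1b, against 1164 for Nqo1, 773 for Abcc1 and 699 for Abcb1a. Among the genes most like the other pumps were Fam168a and Suclg1 for Abcb1a, Abl1 and Trpc4ap for Abcc1, Fam193b and Tpd52l2 for Abcc5, and Mmd and Pfkl for Abcg2, and for the other reductases Smug1 and 1600012H06Rik for Cbr1, Nat9 and Dbr1 for Cbr3, and Kif13a for Por (r = 0.991 or higher). With 6 libraries in 3 pairs, such values describe a shared order of libraries.

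Promoter windows are shown for the members with the largest range between libraries and the smallest. They cover the 250 bases before the start site in RefSeq on GRCm38.p6, and capitals mark matches, on either strand, to the 5 motifs searched, which were the TATA box TATAAA, the box CCAAT, the GC box GGGCGG, the antioxidant response element core TGACNNNGC to which Nrf2 can bind, and the E-box CACGTG to which Myc can bind. The Nqo1 window is chr8:107403206-107403455 on the minus strand.
Nqo1: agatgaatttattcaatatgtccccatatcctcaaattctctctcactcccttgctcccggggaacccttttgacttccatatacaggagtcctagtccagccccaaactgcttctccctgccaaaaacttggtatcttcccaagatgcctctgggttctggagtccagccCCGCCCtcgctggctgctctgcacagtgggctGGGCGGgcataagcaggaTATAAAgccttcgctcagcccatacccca
It held 1 TATAAA and 2 GGGCGG matches. The Abcb1b window is chr5:8797897-8798146 on the plus strand.
Abcb1b: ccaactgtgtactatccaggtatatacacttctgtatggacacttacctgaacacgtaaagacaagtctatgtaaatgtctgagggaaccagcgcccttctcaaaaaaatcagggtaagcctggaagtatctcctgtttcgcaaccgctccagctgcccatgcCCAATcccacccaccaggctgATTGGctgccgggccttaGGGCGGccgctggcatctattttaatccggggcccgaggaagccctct
It held 2 CCAAT matches and 1 GGGCGG match. Of 32851 RefSeq windows of this length, 12.37% held TATAAA, 33.85% CCAAT, 32.74% GGGCGG, 10.16% TGACNNNGC and 6.021% CACGTG. Neither TGACNNNGC nor CACGTG matched in the 10 windows of the 8 members found in the RefSeq table (Abcb1a, Abcb1b, Abcc5, Abcg2, Cbr1, Cbr3, Nqo1 and Por), which says only that these letters are not in these windows. Several windows lie away from the start of the gene in GENCODE: that of Abcb1a by 92986 bases, that of Por by 19112, those of Abcg2 by 10, 12149 and 56023, and that of Cbr1 by 1984.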

How the data were processed

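The series holds 12 samples in 4 groups, and the 6 doxorubicin-treated libraries were used. Per the submitters' processing notes, the tools were edgeR 3.22.3, HTSeq 0.6.1, StringTie 1.2.4 and TopHat2 2.0.14 on build mm10, with no role, order or strand setting stated. Per the file headers, the authors made the CPM values in edgeR. The deposited table also holds the authors' log2 fold change and mean log2 CPM, and a p-value and false discovery rate by the authors, for the guide comparison. Its 6 per-sample pseudo-count columns were not used. Ambiguous reads (0.543% to 1.58% per library) and reads outside genes (8.06% to 8.94%) were removed from the gene table. Dividing CPM by the worth of 1 read gave whole reads within 0.01 for 100% of values in the 6 libraries. The read count of 689 behind the lowest value carries a counting error of 3.81%, which covers counting only.

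R 4.3.3 and limma 3.58.1 (trend, robust) were run on log2(CPM + 0.5), for the 14440 genes that reached 0.5 CPM in 3 or more libraries, with Benjamini-Hochberg adjustment over all of them and a threshold of 0.05. A fold change on this scale understates that of low genes. Gene names, positions and lengths came from GENCODE M21 (9 of 9 members matched). Deviations from group means correlated at 0.869, 0.739 and 0.817 across genes for equal replicate numbers and at most at 0.203 otherwise, so the numbers pair the libraries. Members, gene lists and tests were chosen with earlier results of these data known. Named genes are the 9 members, the 3 most abundant tested genes of each list and any past the threshold, the most abundant marker, and the 2 genes with the highest correlation to each member, of which some are not reported here. Marker genes were read by counts and summed level. The scripts were tested on simulated data. The alternatives tried were other normalizations (quantile, median), other filters (none, or a mean of 5 CPM), a pseudocount of 0.1 or 1, limma with its trend off, the recovered reads in DESeq2 1.42.0 and edgeR 4.0.16, the replicate block, and libraries left out.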

Additional observations from a re-analysis of the deposited data

How the results depend on the processing

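Over 180 comparisons (9 members under 20 alternatives), 0 members were called between guides and 15 fold changes changed sign, in 6 members. Abcb1b, Abcc5 and Abcg2 kept their direction under all 20. Their log2 fold changes ran from 0.025 to 0.067, from 0.0088 to 0.13 and from −0.15 to −0.016, in that order, so their sizes were not stable. Leaving out 1 library at a time without the block, which breaks a pair, gave log2 fold changes from −0.35 to 0.046 for Abcb1a, from −0.025 to 0.17 for Abcc1, from −0.17 to 0.019 for Cbr1, from −0.19 to 0.077 for Cbr3, from −0.56 to 0.29 for Nqo1 and from −0.13 to 0.030 for Por. With the replicate block, Cbr3 was at 0.057 without replicate 1 and at 0.015 without replicate 2. The number of genes called between guides, 0 in limma, was 1 in DESeq2, 5 with the replicate block and 5 with the block in edgeR. With the block and 1 replicate number left out it ranged from 8 to 156 (15 without replicate 1, 156 without replicate 2). The cause was not tested. The smallest adjusted p of a member over these alternatives was 0.135, for Nqo1 with the block and without replicate 2. Limma without trend called 4328 of 14440 genes between replicates in place of 7022, and 5 members in place of 8. Without replicate 1, chosen after seeing the data, 3164 genes and 4 members differed between replicates 3 and 2. With the length of the transcript that has the longest coding sequence, also chosen after seeing the data, levels per kb moved for Por (77.1), Abcg2 (14.3) and Abcb1b (11.7 CPM per kb) besides those given above. With 3 libraries per guide, no exact test could pass the threshold.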
